A study of Mus musculus with 48 samples.

Results

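The 92 genes described here are nuclear genes of the mitochondrial respiratory chain, chosen by symbol. They were every row of the expression tables whose symbol begins with Nduf, Uqcr, Atp5, Cox4, Cox5, Cox6, Cox7 or Cox8, together with Sdha, Sdhb, Sdhc and Sdhd. This rule matched 96 of 46983 rows, of which 4 pseudogene names ending in -ps were left out. The rule reads gene symbols and no measured value. It leaves out chain genes with other symbols, such as Cyc1 of complex III, and takes in assembly factors.

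The respiratory chain sits in the inner mitochondrial membrane. Complex I passes electrons from NADH, and complex II from succinate, to coenzyme Q. Complex III passes them on to cytochrome c and complex IV, cytochrome c oxidase, to oxygen, while complex V, the ATP synthase, uses the proton gradient that complexes I, III and IV build to make ATP. A few subunits of complexes I, III, IV and V are encoded by mitochondrial DNA and the others in the nucleus. Several nuclear subunits of complex IV exist as isoforms, among them the heart and skeletal muscle forms Cox6a2, Cox7a1 and Cox8b. Of the 92 genes, 7 encode core subunits of complex I, 29 its accessory subunits and 7 its assembly factors. A further 4 encode complex II, 8 complex III, 15 complex V, and 11 the more widely expressed subunits of complex IV. The others are the 3 muscle isoforms, 4 other tissue isoforms of complex IV (Cox4i2, Cox6b2, Cox7b2 and Cox8c), the pair Ndufa4 and Ndufa4l2, and the pair Atp5s and Atp5sl.

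RNA of whole skin of C57BL/6 mice was sequenced from 3 body domains, chin, ventral and dorsal, at 6 stages of the hair cycle: competent telogen (CT, the first rest of the follicle), early anagen (EA), mid anagen (MA), late anagen (LA), catagen (C, regression) and refractory telogen (RT, the early second rest). A leading C, V or D gives the domain, so that DC is dorsal catagen. The 18 groups held 2 or 3 libraries each, 43 in all. A separate table held 2 libraries of telogen skin of the ear (ERST), 3 of the cartilage/muscle complex of the ear (LC) and the same 2 DCT libraries. The labels name no transgene or treatment, and they give neither the ages of the mice nor whether replicates came from separate animals, so the p-values measure the spread between these libraries, which may be technical.

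Some libraries went against their labels. The libraries of CLA and DCT were as alike as replicates (mean chi-square per gene 1.85 to 2.34, against 1.43 to 7.95 within groups and 3.61 to 42.6 between other groups). The CLA libraries, labelled chin, had a summed level of trunk Hox genes of 32.1 FPKM, near the 34.5 of DCT and above the 5.99 to 10.8 of the other chin groups. Comparisons between single groups that rest on CLA or DCT skin libraries are therefore left out, except for the ear comparison, which was made with DRT too. In the libraries labelled VEA the 4 cell cycle genes summed to 25.1 FPKM, below the 196 of CEA and 297 of DEA and next to the 30.0 to 34.2 of the refractory telogen groups. In CCT and VCT, labelled as a rest phase, these genes summed to 198 and 219 FPKM. Melanocyte markers summed to 208 and 148 FPKM in CCT and VCT, against 5.05 to 13.9 in the refractory telogen groups. Comparisons with VEA, CCT or VCT are kept under their labels. One VC library carries an ear tag in a label field. Estimated depth was 6840000 to 29240000 read pairs a library, with a median of 12840000. The library kit does not mark strand, and 14 of the 92 genes share exon bases with another gene, among them Ndufa4l2 with Shmt2 and Ndufa3 with Tfpt, so that their values may hold reads of that neighbour.

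Promoter sequences were taken from RefSeq (GRCm38.p6), as the 250 bases before the start of each gene, and were found for 76 of the 92 genes, 3 of them under another symbol. Cox6a2 and Ndufa4l2 were among the 16 without one. The sequences below pair 2 muscle isoforms, whose levels moved together, with the widely expressed isoforms of the same subunits, and add Sdha as one of the 2 promoters, with that of Ndufb4, that held 3 matches to the NRF1-type motif. They are written 5′ to 3′ on the strand of the gene. Capitals mark matches on either strand to an E-box (CANNTG), an NRF1-type motif (GCGCNNGCGC), a GABP-type motif (CCGGAAG), an ERR-type motif (AAGGTCA) or a MEF2-type motif (CTANNNNTAG).
Cox7a1, muscle isoform, chr7:30183921-30184170, plus strand: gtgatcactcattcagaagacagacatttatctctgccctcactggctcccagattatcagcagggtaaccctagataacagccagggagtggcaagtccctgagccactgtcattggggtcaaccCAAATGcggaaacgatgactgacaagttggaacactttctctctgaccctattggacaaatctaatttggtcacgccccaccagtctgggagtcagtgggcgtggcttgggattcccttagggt
Cox7a2, its widely expressed partner, chr9:79759854-79760103, minus strand: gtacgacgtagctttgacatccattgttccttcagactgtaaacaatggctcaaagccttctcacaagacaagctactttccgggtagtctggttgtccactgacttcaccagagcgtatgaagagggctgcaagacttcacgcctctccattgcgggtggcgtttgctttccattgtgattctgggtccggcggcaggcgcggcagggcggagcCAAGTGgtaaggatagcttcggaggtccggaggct
Cox8b, muscle isoform, chr7:140900447-140900696, minus strand: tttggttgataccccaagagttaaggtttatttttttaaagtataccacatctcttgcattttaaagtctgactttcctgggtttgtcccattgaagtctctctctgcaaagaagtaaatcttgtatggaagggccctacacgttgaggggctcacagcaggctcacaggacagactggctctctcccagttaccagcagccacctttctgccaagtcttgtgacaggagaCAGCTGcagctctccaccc
Cox8a, its widely expressed partner, chr19:7217617-7217866, minus strand: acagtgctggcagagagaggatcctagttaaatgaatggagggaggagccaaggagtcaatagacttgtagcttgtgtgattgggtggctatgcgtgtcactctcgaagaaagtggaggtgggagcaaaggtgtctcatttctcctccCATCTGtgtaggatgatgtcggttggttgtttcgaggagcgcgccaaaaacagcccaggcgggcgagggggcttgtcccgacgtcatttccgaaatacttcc
Cox6a1, widely expressed partner of Cox6a2, chr5:115348959-115349208, minus strand: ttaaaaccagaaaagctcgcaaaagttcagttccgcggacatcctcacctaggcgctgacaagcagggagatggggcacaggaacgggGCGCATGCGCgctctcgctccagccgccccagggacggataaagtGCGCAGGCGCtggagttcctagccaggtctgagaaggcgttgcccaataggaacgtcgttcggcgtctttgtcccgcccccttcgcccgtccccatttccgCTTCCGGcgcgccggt
Sdha, complex II, chr13:74350241-74350490, minus strand: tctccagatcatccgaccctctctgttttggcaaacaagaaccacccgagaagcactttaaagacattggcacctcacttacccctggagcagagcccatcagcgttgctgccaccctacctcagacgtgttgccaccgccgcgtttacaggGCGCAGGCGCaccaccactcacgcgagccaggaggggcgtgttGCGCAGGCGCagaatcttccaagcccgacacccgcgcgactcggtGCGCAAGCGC

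The Cox7a1, Cox7a2, Cox8b and Cox8a promoters each held 1 E-box and none of the other marked motifs. The Cox6a1 promoter held 2 NRF1-type matches and 1 GABP-type match. Over the 76 promoters, 16 (21.1%) held the NRF1-type motif, against 4.98% of all 32851 promoters of the same length. NRF1 and GABP (also named NRF2) are transcription factors known for respiratory chain promoters. The GABP-type motif was in 13 (17.1%, against 6.91%), the ERR-type motif in 5 (6.58%, against 4.08%) and the E-box in 49 (64.5%, against 66.2%). The MEF2-type motif was found in 1, that of Cox5b (1.32%, against 3.20% of all promoters). A GC box (GGGCGG, not capitalised) was in 28 (36.8%, against 32.7%), and no other overlap between motifs was marked. A match shows the letters only, and its absence concerns this window only.

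Of the 92 genes, 90 had mean levels from 5.51 to 1213 FPKM (read pairs scaled to transcript length and library size) over the 43 skin libraries, with a median of 268 FPKM. The highest were Uqcr11 of complex III (1213 FPKM), Ndufa4, a subunit first ascribed to complex I and later to complex IV (1105 FPKM), and Atp5l of complex V (1072 FPKM). Ndufaf5, a complex I assembly factor, was the lowest of the 90 at 5.51 FPKM. The testis isoforms Cox7b2 and Cox8c averaged 0.018 and 0.047 FPKM and were listed at 0 in most libraries. These 2 genes did not reach 0.5 FPKM in 2 libraries of the skin fit and were not tested, so 90 members entered each test, beside 21257 genes in all.

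Over the 18 groups the members spanned narrower ranges, by their median, than all genes with a mean of at least 5 FPKM. That set was not matched to the members' levels, which had a median of 268 FPKM. The ratio of the highest to the lowest group mean had a median of 2.11 over the 90 members and of 2.70 over the 9287 genes with a mean of at least 5 FPKM. It was under 2 for 36 members (40.0%), against 20.8% of those genes, and 3 or more for 14 members. The narrowest ranges included Ndufc2 (1.51-fold), Ndufaf3 (1.51-fold) and Cox6a1 (1.53-fold). Only 4 of the 90 reached 10-fold: Cox6a2 (82.5), Cox8b (30.3), Cox7a1 (20.3) and Ndufa4l2 (12.0). DC had the highest group mean for 44 members, CRT and DEA for 14 each. VEA had the lowest for 24, VMA for 23, DRT for 15 and CMA for 14. The counts at 3-fold, at 10-fold and of extreme groups have no share of all genes beside them. They describe the members only and show no excess over other genes.

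**Figure D1:**
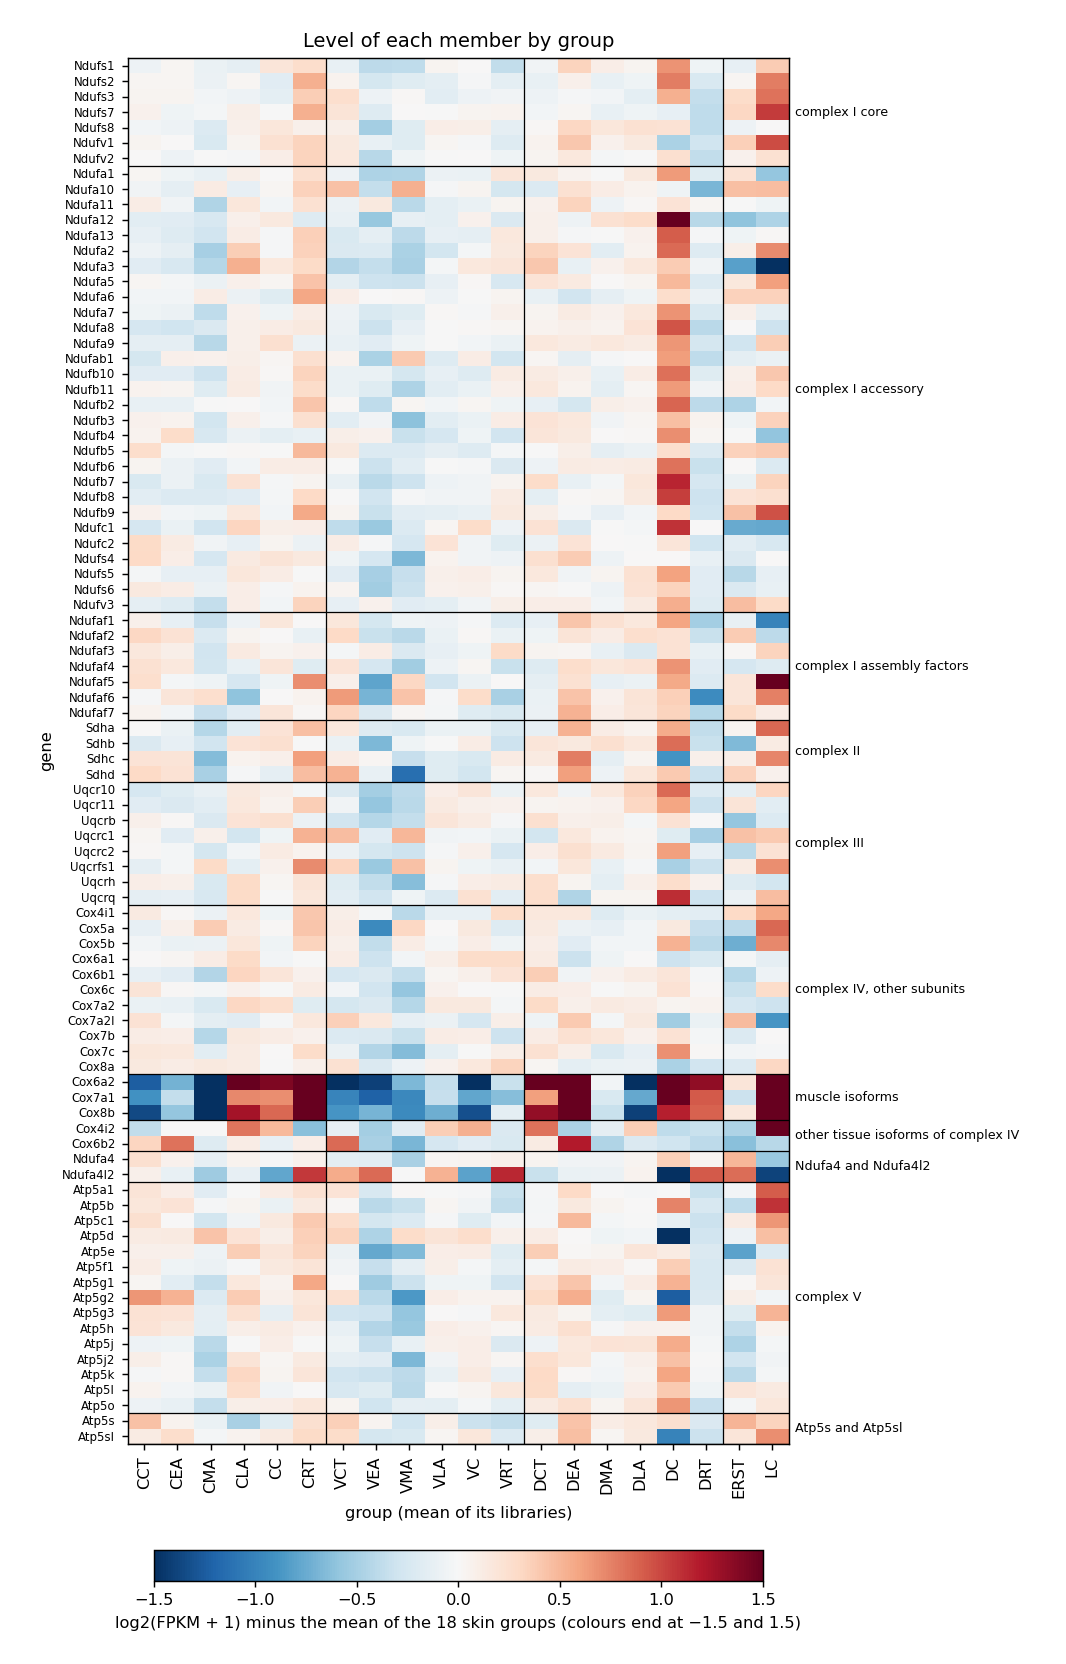
Level of the 90 tested members (rows, by complex) in the 18 skin groups and 2 ear tissues (columns, mean of 2 or 3 libraries), as the difference of log2(FPKM + 1) from the mean of the 18 skin groups, in colours that end at 1.5 in either direction. The column of DC is red for most complex I subunits and blue for Atp5d, Atp5g2 and Ndufa4l2, and the 3 muscle isoforms have the widest range.

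Together the 92 genes took 2.62% to 4.28% of the summed FPKM of the skin libraries. The share was 4.28% and 4.14% in the DC libraries, and 4.13%, 3.52% and 3.96% in CRT. It was lowest in VEA (2.62%, 2.68% and 2.80%), CMA (2.64% and 2.69%), VMA (2.73% and 2.70%) and DRT (2.85% and 2.82%), and was 2.66% in VRT replicate 1. The DC libraries stood above all others, and the libraries of VEA, CMA and VMA below nearly all of them. Keratins and keratin-associated proteins, which build the hair shaft, took 20.1% and 16.8% of the summed FPKM in CMA, 18.9% and 19.0% in VMA and 11.6% to 11.8% in DMA. Against a sum without these and without the mitochondrially encoded genes, the members' share was 3.45% and 3.59% in CMA, 3.54% and 3.46% in VMA, up to 4.14% in DMA, 5.30% and 5.19% in DC, and 3.23% to 3.29% in VEA. DC thus remained the highest on this scale, and the 3 VEA libraries and VRT replicate 1 the lowest.

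**Figure D2:**
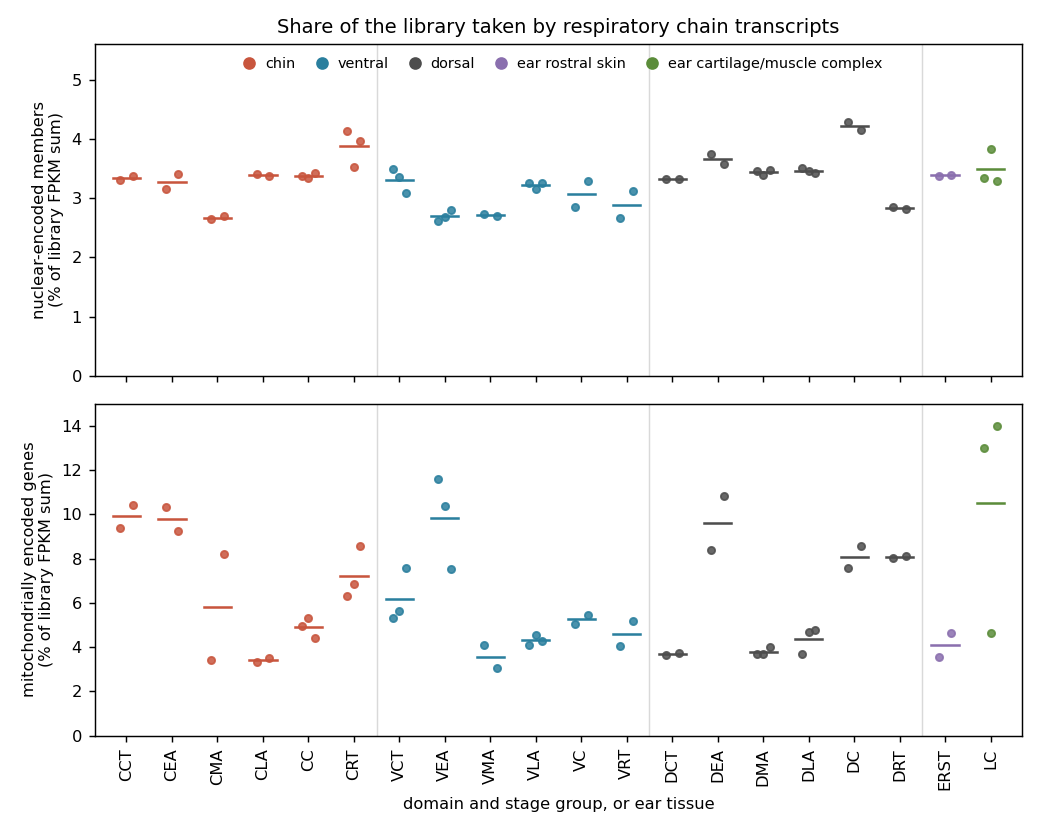
Percent of each library's summed FPKM taken by the 92 nuclear members (upper panel) and by all mitochondrially encoded genes, those with names that start with mt- (lower panel), one point a library, with the group mean as a bar and colours for the domains and ear tissues. DC libraries stand at 4.14% and 4.28% in the upper panel, and the lower panel has wider spread within groups, as in LC (4.62% to 13.98%).

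The mitochondrially encoded genes, taken as all whose names start with mt-, did not follow the nuclear ones from group to group. Their share was 11.6%, 10.4% and 7.52% in VEA, which held the library with the lowest nuclear share, and 3.65% and 3.72% in DCT. Libraries of one group differed in this share by much more than for the nuclear genes: 3.41% and 8.23% in CMA, and 13.0%, 4.62% and 14.0% in LC. The 13 mitochondrially encoded subunits are only a part of these genes. Their own sum was 65118 FPKM in VEA and 21192 in DCT as group means, and 28691 and 37699 in the CMA libraries. Within the nuclear sum, complex I accessory subunits made up 34.4% in DC and 27.2% to 29.4% in the other skin groups, and the widely expressed complex IV subunits 17.4% in DC and 21.3% to 24.0% elsewhere in skin. DC was therefore set apart by its composition as well as by its sum. The differences of log2(FPKM + 1) from the mean of all groups had a Spearman correlation with GC content over 21129 genes of -0.36 in DC and of -0.13 to 0.23 in the other groups. The members' median GC content was 50.1%, and that of all genes 49.3%. The GC trend was also removed in every library, and those values stand beside the counts and medians of DC. They are not given for its shares, its composition or its single genes.

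Muscle isoforms had the widest range. Cox6a2 (chr7:128205435-128206387, minus strand, GRCm38) is the heart and skeletal muscle isoform of subunit 6A of cytochrome c oxidase, and Cox6a1 its partner in other tissues. In chin skin Cox6a2 was 455, 254 and 420 FPKM in CRT, 66.1, 87.2 and 82.5 in CC, and 4.75 to 20.3 in the libraries of CCT, CEA and CMA. Dorsal skin had 126 and 119 FPKM in DEA, 96.5 and 91.9 in DC, 76.0 and 73.5 in DRT, 26.8 to 31.0 in DMA and 7.39 to 8.88 in DLA. The 15 ventral libraries lay between 3.91 and 28.3 FPKM. Cox6a2 was thus higher in every CRT library than in any other skin library, and every ventral library lay below those of CC, CRT, DEA, DC and DRT. In LC it was 708, 781 and 728 FPKM.

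Cox7a1 and Cox8b, the muscle isoforms of subunits 7A and 8, were also highest in CRT and in LC. Cox7a1 was 282, 169 and 260 FPKM in CRT, 152 and 144 in DC, 117 and 110 in DEA, and 346, 361 and 337 in LC. Cox8b was 637, 364 and 593 FPKM in CRT, 214 and 191 in DEA, 153 and 133 in DC, and 675, 730 and 672 in LC. The lowest group of both was CMA, with Cox7a1 at 14.5 and 8.77 and Cox8b at 27.0 and 8.06 FPKM. As a share of each pair, Cox6a2 made up 51.6% ± 1.1 (SD, n = 3) of Cox6a1 and Cox6a2 in LC, 32.7% ± 7.4 (SD, n = 3) in CRT and 0.50% ± 0.14 (SD, n = 2) in VC. Cox7a1 was 46.8% of Cox7a1 and Cox7a2 in LC and 35.0% in CRT, and Cox8b 44.9% of Cox8a and Cox8b in LC and 41.8% in CRT. The widely expressed partners did not have this range: group means of Cox6a1 differed by 1.53-fold, of Cox7a2 by 1.66-fold and of Cox8a by 1.75-fold.

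The 15 skeletal muscle markers moved with these isoforms. Their summed level was 29381 FPKM in LC, 19676 in CRT, 7794 in DEA, 4610 in DRT, 4060 in DC, 3907 in CC, and 307 to 1354 in the ventral groups. Acta1, skeletal actin, was 5212, 3326 and 4808 FPKM in CRT and 65.9 to 519 in the ventral libraries. In bulk tissue, more cells of a type and more RNA per cell cannot be told apart, and the part of muscle tissue in the isoform levels was not tested. Over the 43 skin libraries the genes most like Cox6a2 in log2(FPKM + 1) were Tnnt3 (Pearson r = 0.99), Neb (0.99) and Tnni2 (0.99), genes of the fast muscle sarcomere. For Cox7a1 they were Myf6 (0.96), Mb (0.96) and Xirp2 (0.95), and for Cox8b Adssl1 (0.96), Tmem182 (0.96) and Synpo2 (0.95). These correlations are descriptions, since libraries of a group share their tissue. DC was one place where the isoforms and the markers differed in proportion: Cox7a1 was higher there than in DEA while Acta1 was 675 and 659 FPKM against 1983 and 1793, and Ckm, muscle creatine kinase, 103 and 98.2 against 736 and 673. Cox7a1 and Cox8b are also known from brown fat and are 2 of the 7 brown adipocyte markers. The summed level of all 7 was 962 FPKM in CRT, 189 to 526 in the other skin groups, 1126 in ERST and 1117 in LC. The other 5 markers summed to 194 FPKM in CRT, 116 to 256 over the other skin groups, 1024 in ERST and 76.8 in LC. In this sum CRT lay within the range of the other skin groups. The sum also holds Elovl3, which is a sebaceous gland marker too. Which of the 5 carried it, in skin or in ERST, is not given, and the part of brown fat was not tested. Of the 5, Ucp1, which defines brown fat, was at 0 to 0.25 FPKM in skin and 1.24 to 2.22 FPKM in LC.

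**Figure D3:**
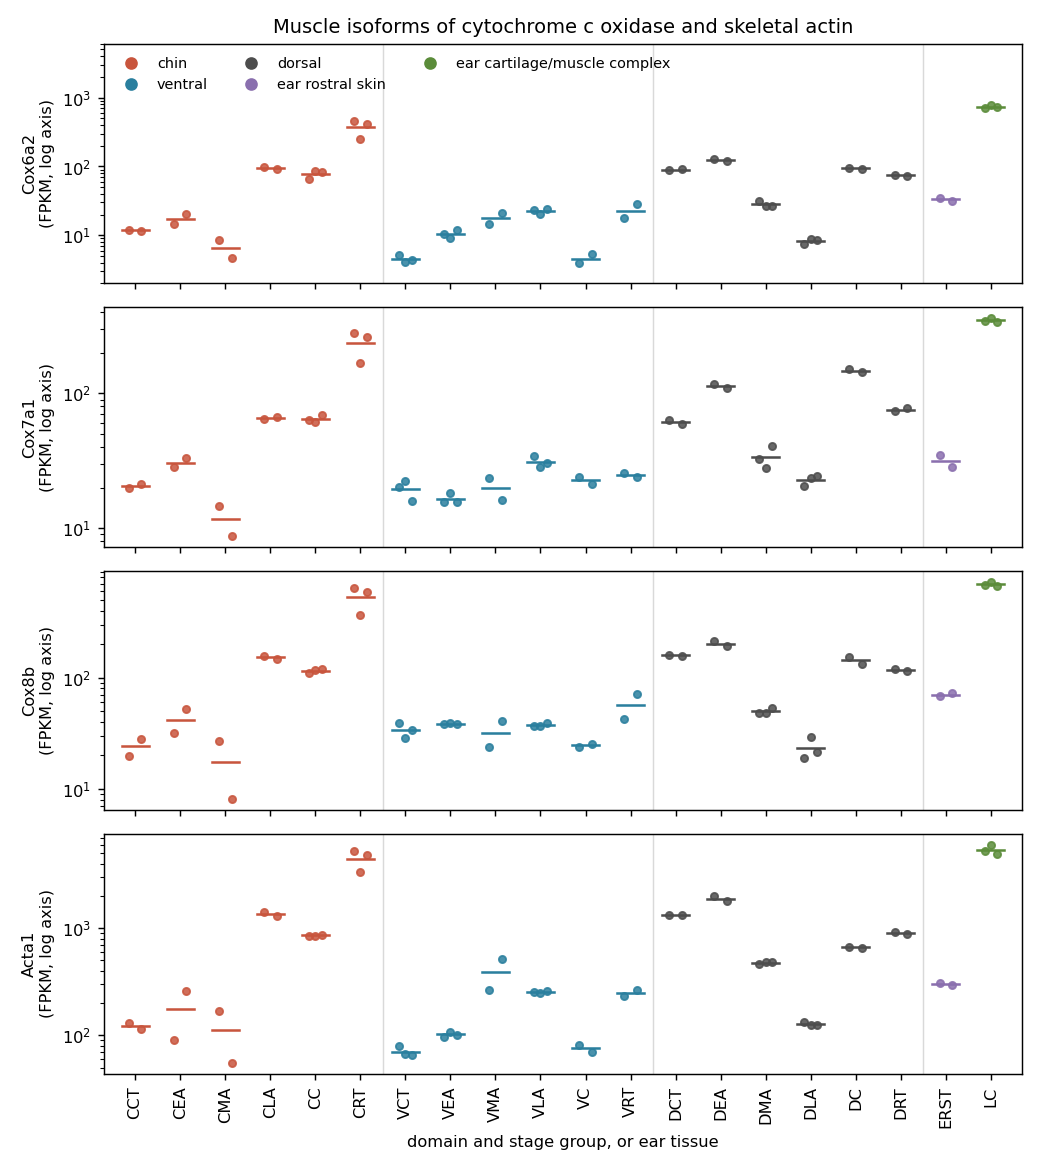
FPKM on a log axis of Cox6a2, Cox7a1, Cox8b and the muscle marker Acta1 in each of the 48 libraries by group, with group means as bars. In all 4 panels CRT and LC are highest, and the ventral groups (blue) lie below CRT.

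Other members with tissue-restricted forms had their own patterns. Ndufa4l2 (chr10:127514967-127517154, plus strand), a paralog of Ndufa4 known as a hypoxia-induced gene, was 8.76 and 8.65 FPKM in DC, below every other skin library, and 21.8 to 31.3 in VC and CC. It was 85.4 and 123 FPKM in VRT, 114, 84.0 and 98.5 in CRT, 91.2 and 89.1 in DRT and 82.7, 89.0 and 86.0 in VEA. Ndufa4l2 was thus lower in every catagen library than in every refractory telogen library, while Ndufa4 differed by 1.81-fold between its lowest and highest group means. The genes most like Ndufa4l2 over the 43 libraries were Usp18 (r = 0.88), Gstt3 (0.88) and Fstl3 (0.87). In ear tissue Ndufa4l2 was 85.0 and 84.2 FPKM in ERST and 16.1, 17.8 and 18.4 in LC.

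Cox4i2, the lung-enriched isoform of subunit 4, was 10.3 to 33.2 FPKM in skin and 79.7, 84.3 and 74.8 FPKM in LC, where it made up 5.13% of Cox4i1 and Cox4i2, against 0.82% to 2.75% in skin. Cox6b2, the testis isoform of subunit 6B, was 22.5 and 21.6 FPKM in DEA, 14.3, 19.1 and 18.4 in VCT, and never more than 2.11% of Cox6b1 and Cox6b2 as a group mean. The 3 genes Atp5g1, Atp5g2 and Atp5g3 encode the same mature subunit c of the ATP synthase. Atp5g1 supplied 50.7% to 65.9% of their sum in every group. Atp5g2 supplied 12.7% to 23.2% in all skin groups but DC, where it was 71.3 and 69.1 FPKM and supplied 5.46%. Cox7a2l, which encodes a factor of supercomplex assembly, was lowest in DC (218 FPKM) and highest in DEA (414 FPKM). Cox7b ranged from 194 FPKM in CMA to 305 FPKM in DEA.

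**Figure D4:**
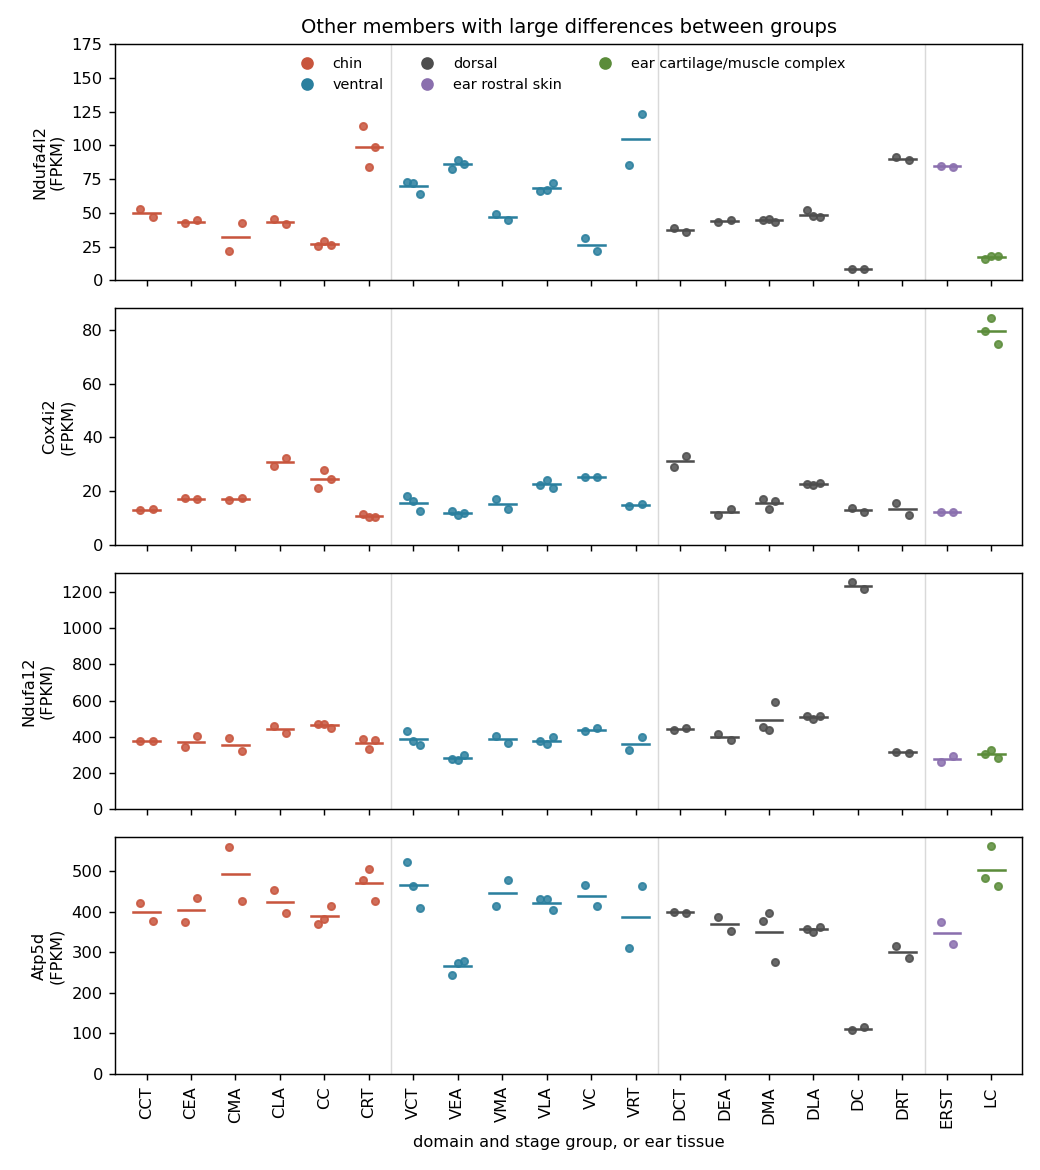
FPKM of Ndufa4l2, Cox4i2, Ndufa12 and Atp5d in each of the 48 libraries by group, with group means as bars and axes that start at 0. DC is far below the other skin groups for Ndufa4l2 and Atp5d and far above them for Ndufa12, and LC is highest for Cox4i2.

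Whether the members changed differently over the cycle in the 3 domains was tested with the interaction of domain and stage (limma on log2(FPKM + 1), Benjamini-Hochberg adjusted p under 0.05 over all 21257 genes, as in all that follows). It was called for 84 of 90 members, beside 73.3% of all genes. The 6 others were Cox6c, Ndufb4, Ndufc2, Cox8a, Cox6a1 and Ndufaf3. The count was 82 without CLA and DCT and 79 without VEA as well. Among stages within a domain, 77 members differed in chin skin (all genes 66.2%), 80 in ventral skin (70.2%) and 79 in dorsal skin (68.5%). Without CLA, DCT and VEA these counts were 66, 60 and 75. The share of all genes is not given for the fits without these libraries, so their counts cannot be set against it. All genes here start at 0.5 FPKM, and no share with a filter at 5 FPKM is given for the interaction or the stages.

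Among domains at one stage, the share of members called was above that of all genes at 4 stages and below it at 2, but the order depended on the fit. In early anagen 64 of 90 differed (all genes 51.6%), in mid anagen 59 (38.1%), in catagen 65 (42.9%) and in refractory telogen 57 (42.2%). In competent telogen 44 differed (54.0%) and in late anagen 17 (20.8%). Catagen kept this excess in a fit of its 7 libraries alone (66 members, 73.3%, against 51.9% of all genes) and after median of ratios (59, 65.6% against 44.2%). The background holds genes from 0.5 FPKM upward, and with a filter at 5 FPKM the excess was smaller at all 4 stages. It was then 74.4% against 61.3% in catagen, 73.3% against 66.4% in early anagen, 66.7% against 54.1% in mid anagen and 65.6% against 55.5% in refractory telogen. In early anagen 40 members (44.4%, against 49.0%) differed after median of ratios. A fit of 1 stage alone gave 16 members in mid anagen (17.8%, against 15.4%), 19 in refractory telogen (21.1%, against 21.8%) and 55 in late anagen (61.1%, against 41.5%). The members of mid anagen and refractory telogen were therefore near the background when the spread was taken from those libraries alone. Competent telogen and late anagen rested on the doubtful libraries: without CLA and DCT the counts were 12 (13.3%, against 22.0% of all genes) and 6 (6.67%, against 2.69%). Leaving out 1 library gave 28 (DCT replicate 1) or 27 (DCT replicate 2) in competent telogen. In late anagen it gave 11 without CLA replicate 1, CLA replicate 2 or VLA replicate 2, and 28 without VRT replicate 1 or 2.

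**Figure D5:**
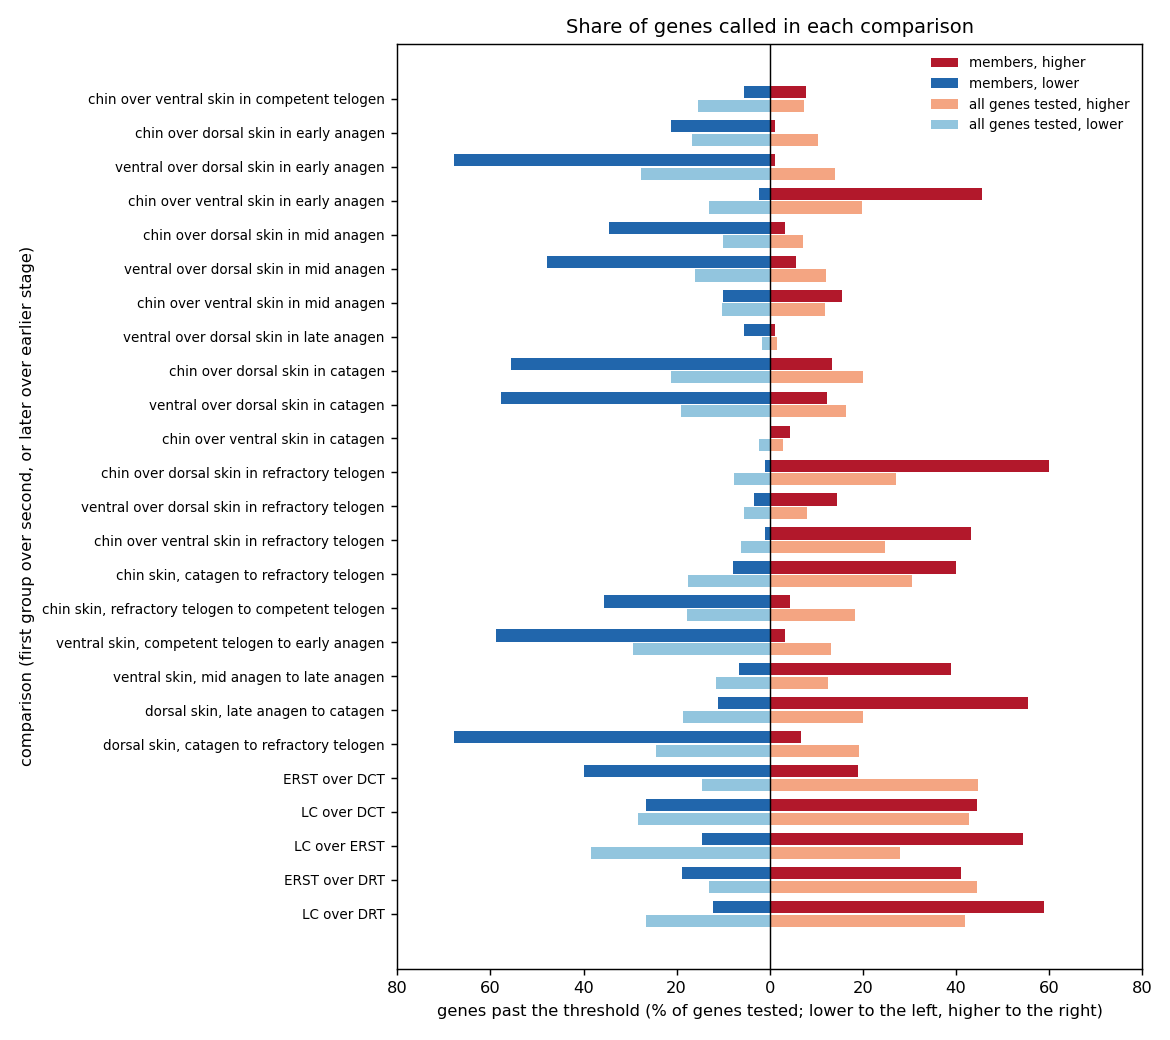
Percent of genes past the adjusted threshold in each comparison, to the right when higher in the group named first or at the later stage and to the left when lower, for the 90 members (dark bars) and for all genes tested (light bars). The dark bars are longest to the left in ventral over dorsal early anagen (61 members) and dorsal catagen to refractory telogen (61 members), and to the right in chin over dorsal refractory telogen (54 members).

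In refractory telogen the members were higher in chin than in dorsal skin. Of 90, 54 were higher and 1, Cox7a2, was lower, where 27.2% of all genes were higher and 7.61% lower. The members' median log2 fold change was 0.44 and that of all genes 0.14, and under the other scalings the members' median stayed between 0.23 and 0.49, above that of all genes in each. All 7 core subunits of complex I and all 4 genes of complex II were higher, with 18 of 29 accessory subunits and 8 of 15 of complex V. Uqcrfs1, the Rieske iron-sulfur protein of complex III, was 203 FPKM in CRT and 98.2 in DRT (log2 fold change 1.03 ± 0.10 (SE), adjusted p = 1.95e-09). Uqcrc1, a core protein of complex III, was 383 and 187 FPKM (1.03 ± 0.14, adjusted p = 6.15e-07). Sdha, the flavoprotein of succinate dehydrogenase, was 101, 89.0 and 107 FPKM in CRT and 57.8 and 53.8 in DRT (0.81 ± 0.13, adjusted p = 1.12e-05), with no overlap. The muscle isoforms differed most, with Cox6a2 at 376 and 74.8 FPKM (2.27 ± 0.21, adjusted p = 1.97e-09) and Cox8b at 531 and 117 FPKM (2.13 ± 0.30, adjusted p = 2.06e-06). Cox7a2 was 434 and 510 FPKM (-0.23 ± 0.08, adjusted p = 0.0288), a call lost without CRT replicate 1 (adjusted p = 0.0564), CRT replicate 3 (0.12) or DRT replicate 1 (0.272), and on the TPM scale (0.0823). All 15 skeletal muscle markers, 7 of 8 adipocyte markers and 5 of 5 dermal fibroblast markers were also higher in CRT, and the part of these tissues was not tested.

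Chin skin was also above ventral skin in refractory telogen, with 39 members higher and 1 lower (all genes 24.7% and 6.06%) and a median of 0.24 against 0.17 for all genes. After scaling by median of ratios the counts were 18 and 4, and both medians were 0.07. Core subunits of complex I were higher in 6 of 7 cases and complex II in 4 of 4. Cox6a2 was 376 FPKM in CRT and 17.6 and 28.3 in VRT (3.97 ± 0.21, adjusted p = 3.71e-14), and Cox8b 531 against 42.1 and 71.5 (3.21 ± 0.30, adjusted p = 2.19e-09). Sdha was 98.9 and 61.4 FPKM as group means (0.74 ± 0.13, adjusted p = 6.49e-05). The 1 member lower was Cox4i2, at 10.7 and 14.7 FPKM (-0.42 ± 0.13, adjusted p = 0.0169), not called on the TPM scale (adjusted p = 0.151), without CRT replicate 3 (0.0505) or without VRT replicate 2 (0.103). The 15 muscle markers were all higher in CRT and the 8 hair markers all lower.

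Ventral and dorsal skin differed less in refractory telogen, and the direction depended on the scaling. As deposited, 13 members were higher and 3 lower in VRT (all genes 8.10% and 5.57%), with a median of 0.14, but the counts were 1 and 6 on the TPM scale, 5 and 4 after median of ratios and 1 and 8 after quantile scaling, where the median was -0.03. The 3 lower members were the muscle isoforms, led by Cox6a2 at 22.9 and 74.8 FPKM (-1.70 ± 0.23, adjusted p = 4.68e-06) and Cox7a1 at 25.8 and 24.1 against 75.8 (-1.57 ± 0.20, adjusted p = 1.95e-06). All 15 skeletal muscle markers were lower as well. Ndufa8, an accessory subunit of complex I, was 234 and 172 FPKM (0.44 ± 0.09, adjusted p = 0.00164), not called on the TPM (0.0551) or quantile scale (0.0883). Cox8a was 865 and 564 FPKM (0.56 ± 0.16, adjusted p = 0.0195), a call lost without VRT replicate 2 (adjusted p = 0.608), DRT replicate 1 (0.0549) or DRT replicate 2 (0.158) and after removal of the GC trend (0.0607).

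In early anagen the members were lower in ventral than in dorsal skin, in a comparison that rests on the VEA libraries. Of 90, 61 were lower and 1 higher (all genes 27.7% and 14.0%), and the median was -0.44 against -0.09. After scaling by median of ratios 31 were lower and 2 higher, with medians of -0.19 and 0.01. All 4 genes of complex II were lower, 5 of 7 core and 16 of 29 accessory subunits of complex I, 6 of 7 of its assembly factors, 6 of 8 of complex III and 13 of 15 of complex V. Sdhb, the iron-sulfur subunit of complex II, was 187, 186 and 203 FPKM in VEA and 352 and 329 in DEA (-0.82 ± 0.09, adjusted p = 4.93e-08). Cox5a, a subunit of complex IV, was 178, 194 and 189 FPKM against 341 and 347 (-0.88 ± 0.11, adjusted p = 1.94e-07). Atp5b, the catalytic beta subunit of the ATP synthase, was 523 and 771 FPKM as group means (-0.56 ± 0.08, adjusted p = 8.29e-07). For all 3 genes every VEA library lay below every DEA library. Cox6a2 was lowest relative to dorsal skin, at 10.5 and 123 FPKM (-3.44 ± 0.21, adjusted p = 1.68e-13), with Cox7a1 at 16.5 and 114 (-2.71 ± 0.19, adjusted p = 1.38e-12). The 1 member higher was Ndufa4l2, at 85.9 and 43.8 FPKM (0.96 ± 0.17, adjusted p = 3.20e-05). Beside these, all 15 skeletal muscle, all 4 cell cycle, all 5 dermal fibroblast and all 3 melanocyte markers were lower in VEA and all 5 epidermal keratinocyte markers higher, and their part was not tested.

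Chin skin in early anagen lay above ventral skin, while its difference from dorsal skin was near the background. Against VEA, 41 members were higher and 2 lower (all genes 19.8% and 13.0%), with a median of 0.29 against 0.06, and 25 and 3 after median of ratios. Cox5a was 325 and 445 FPKM in CEA (1.02 ± 0.11 over VEA, adjusted p = 1.84e-08), and Cox6b2 13.0 and 20.6 against 5.43 to 7.48 in VEA (1.28 ± 0.24, adjusted p = 0.000131). The 2 lower members were Ndufa4l2, at 43.6 and 85.9 FPKM (-0.96 ± 0.17, adjusted p = 3.98e-05), and Ndufv3, at 278 and 333 FPKM (-0.26 ± 0.08, adjusted p = 0.0133, not called without CEA replicate 2, 0.102, or VEA replicate 3, 0.0659). Against DEA, which leaves VEA out, 19 members were lower and 1 higher (all genes 16.7% and 10.3%), with a median of -0.14 against -0.05 and of -0.01 after median of ratios. Complex II had 3 of 4 genes lower. The largest differences were again muscle isoforms, Cox6a2 at 17.5 and 123 FPKM (-2.76 ± 0.23, adjusted p = 4.26e-10) and Cox8b at 41.9 and 203 FPKM (-2.28 ± 0.33, adjusted p = 6.89e-06), beside 15 of 15 muscle, 5 of 5 dermal fibroblast and 7 of 8 adipocyte markers lower. The 1 higher member, Cox4i2, was 17.3 and 17.0 FPKM in CEA and 10.9 and 13.2 in DEA (0.48 ± 0.15, adjusted p = 0.0154), and was not called without either CEA library (0.0512 and 0.0851) or without DEA replicate 1 (0.18).

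In mid anagen both chin and ventral skin were below dorsal skin. Chin skin had 31 members lower and 3 higher (all genes 10.0% and 7.18%), with a median of -0.20 against -0.01, and on the other scales 16 to 56 were lower. Ventral skin had 43 lower and 5 higher (all genes 16.1% and 12.1%), with a median of -0.28 against -0.06, and 29 to 52 lower on the other scales. Complex II was lower in chin for 4 of 4 genes and in ventral skin for 3 of 4. Sdhd, the membrane anchor of complex II, was 24.4 and 34.2 FPKM in VMA, 43.8 and 48.8 in CMA and 61.2, 57.1 and 67.5 in DMA, with no overlap between the 3 groups (ventral over dorsal -1.07 ± 0.12, adjusted p = 2.14e-07). Some subunits went the other way. In VMA over DMA, Uqcrfs1 was 168 and 114 FPKM (0.56 ± 0.10, adjusted p = 7.60e-05) and Uqcrc1 375 and 275 FPKM (0.45 ± 0.14, adjusted p = 0.0133, not called without VMA replicate 1, 0.0778, or 2, 0.0681). In CMA over DMA, Atp5d, the delta subunit of the ATP synthase, was 493 and 350 FPKM (0.50 ± 0.14, adjusted p = 0.0166), lost without CMA replicate 1 (0.267) or DMA replicate 3 (0.119) and on the TPM scale (0.113). Cox5a was 477 and 336 FPKM (0.49 ± 0.11, adjusted p = 0.00236), lost without CMA replicate 1 (0.126) and on the TPM scale (0.0513).

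The muscle isoforms had their lowest chin group means at this stage. Cox6a2 was 6.60 FPKM in CMA and 28.3 in DMA (-1.99 ± 0.21, adjusted p = 1.35e-07), and Cox8b 17.5 and 49.9 (-1.67 ± 0.30, adjusted p = 0.000273, and 0.0517 without CMA replicate 2). Cox7a1 was 19.8 in VMA and 33.7 in DMA (-0.74 ± 0.19, adjusted p = 0.00315, and 0.14 without VMA replicate 2). Skeletal muscle markers were lower than in DMA for 14 of 15 in CMA and 10 of 15 in VMA. Chin and ventral skin differed from each other in 14 members higher and 9 lower in chin (all genes 11.8% and 10.3%), with a median of 0.04, but on the TPM scale in 7 and 18, with a median of -0.10, and after quantile scaling in 9 and 13. Sdhd was 46.3 and 29.3 FPKM (0.66 ± 0.14, adjusted p = 0.00088, and 0.0549 without VMA replicate 1) and Cox6a2 6.60 and 17.9 FPKM (-1.33 ± 0.23, adjusted p = 0.000143). Atp5g2, at 145 and 91.8 FPKM (0.69 ± 0.21, adjusted p = 0.0189), and Cox7a1, at 11.7 and 19.8 FPKM (-0.73 ± 0.20, adjusted p = 0.00978), were not called without CMA replicate 2 (0.226 and 0.314) or VMA replicate 1 (0.364 and 0.181).

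In catagen dorsal skin stood apart. Chin skin had 50 members lower and 12 higher than DC (all genes 21.3% and 20.0%), with a median of -0.40 against 0.00 for all genes, and ventral skin 52 lower and 11 higher (all genes 19.0% and 16.4%), with a median of -0.45 against 0.00. With the GC trend removed the counts were 46 and 12, and 47 and 8, with medians of -0.31 and -0.35. Both comparisons share the 2 DC libraries. Markers of other tissues moved as well. The summed level of hair matrix and shaft markers was 10767 FPKM in DC, 18666 in CC and 17488 in VC, and that of cell cycle markers was 238, 150 and 154. Melanocyte markers summed to 503 FPKM in DC, 227 in CC and 304 in VC, dermal fibroblast markers to 1388, 774 and 970, and slow or cardiac muscle markers to 97.4, 28.2 and 37.0. Of 8 hair markers 5 were higher and 2 lower in either comparison, and of 4 cell cycle markers 2 were lower and 0 higher. The part of these tissues was not tested. Complex I accessory subunits were lower in 23 of 29 cases in either comparison, complex II in 3 of 4, and complex V in 9 of 15 against chin and 8 of 15 against ventral skin. Ndufa12, an accessory subunit of complex I, was 1256 and 1215 FPKM in DC and 274 to 594 in the other 41 skin libraries (chin over dorsal -1.41 ± 0.11, adjusted p = 2.33e-11). Atp5b was 1165 FPKM in DC, 649 in CC and 668 in VC (chin over dorsal -0.84 ± 0.08, adjusted p = 4.30e-10).

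The members that went against this direction in DC included subunits of the same complexes. Atp5d was 107 and 115 FPKM in DC and 244 to 561 in the other skin libraries (chin over dorsal 1.80 ± 0.14, adjusted p = 4.29e-11, and ventral over dorsal 1.98 ± 0.16, adjusted p = 7.21e-11). Sdhc, a membrane anchor of complex II, was 41.6 and 41.0 FPKM in DC, 77.3, 87.6 and 82.4 in CC and 73.0 and 59.8 in VC (chin over dorsal 0.98 ± 0.15, adjusted p = 4.73e-06), while Sdhb was 567 and 534 FPKM in DC and 365 in CC (-0.59 ± 0.09, adjusted p = 8.68e-06). Ndufv1, which carries the NADH-binding flavin of complex I, was 82.0 FPKM in DC and 134 in CC (0.71 ± 0.08, adjusted p = 5.56e-08), while Ndufs1, its largest core subunit, was 78.3 and 55.6 FPKM (-0.49 ± 0.13, adjusted p = 0.00212). Ndufa4l2 was 27.0 FPKM in CC and 26.5 in VC against 8.71 in DC (1.53 ± 0.17, adjusted p = 1.53e-08, and 1.48 ± 0.18, adjusted p = 1.98e-07). DC therefore differed between subunits of one complex, in both directions and without overlap for the genes named here. Of the genes lower in DC, transcript GC content was 59.3% for Atp5d, 60.7% for Ndufa4l2, 56.7% for Ndufv1 and 48.7% for Sdhc. Of those higher in DC, it was 53.4% for Sdhb and 45.1% for Ndufs1. Values with the GC trend removed are not given for these genes.

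Between chin and ventral skin in catagen 4 members were higher in chin and 0 lower (all genes 2.96% and 2.23%), with a median of 0.04, in the limma test that called 12 and 50 between chin and dorsal skin at the same stage. The muscle isoforms were 3 of the 4. Cox6a2 was 66.1, 87.2 and 82.5 FPKM in CC and 3.91 and 5.30 in VC (3.83 ± 0.21, adjusted p = 1.95e-12), and Cox8b 110, 117 and 120 against 23.8 and 25.5 (2.19 ± 0.30, adjusted p = 1.27e-05). Cox7a1 was 64.7 and 22.7 FPKM (1.47 ± 0.19, adjusted p = 2.90e-06). All 15 skeletal muscle markers were higher in CC. Against DC, VC was lower in Cox6a2 (-4.10 ± 0.23, adjusted p = 1.11e-13) and Cox7a1 (-2.65 ± 0.20, adjusted p = 3.06e-11), and CC in Cox7a1, at 64.7 and 148 FPKM (-1.18 ± 0.19, adjusted p = 6.10e-06).

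At the other stages few members differed between the domains in comparisons without CLA and DCT. Of the groups compared, CCT and VCT had cell cycle and melanocyte levels above those of the refractory telogen groups, as given above. In competent telogen 7 members were higher and 5 lower in chin than in ventral skin (all genes 7.44% and 15.5%), and the members' median of 0.02 turned to -0.03 on the TPM scale, with counts of 7 and 7 there and of 10 and 3 after median of ratios. Cox6a2 was 11.9 and 11.6 FPKM in CCT and 4.06 to 5.24 in VCT (1.20 ± 0.21, adjusted p = 0.000127), Atp5g3 275 and 193 (0.51 ± 0.13, adjusted p = 0.00408, and 0.0516 without CCT replicate 2), Ndufaf6 12.2 and 20.0 (-0.67 ± 0.18, adjusted p = 0.00652, and 0.138 without CCT replicate 2) and Ndufa10 99.3 and 140 (-0.49 ± 0.09, adjusted p = 0.000263). In late anagen 1 member was higher and 5 lower in ventral than in dorsal skin (all genes 1.47% and 1.67%), and 1 and 2 after median of ratios, with a median of -0.10. The 1 higher was Cox6a2, at 23.1, 20.4 and 24.5 FPKM in VLA and 7.39 to 8.88 in DLA (1.35 ± 0.19, adjusted p = 4.26e-05), beside 13 of 15 muscle markers. Ndufa12 (379 and 510 FPKM, -0.43 ± 0.10, adjusted p = 0.0114) was lost without VLA replicate 2 (0.0636), DLA replicate 1 (0.052) or DLA replicate 3 (0.0523), and Ndufaf2 (35.3 and 45.4 FPKM, -0.35 ± 0.09, adjusted p = 0.0335) without any 1 of the 6 libraries (0.0713 to 0.148).

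Within a domain, the 2 steps of the cycle with the most members called, among those free of CLA and DCT, are given for each domain, a choice made after their values were seen. In dorsal skin the members rose into catagen and fell after it, both steps resting on the DC libraries. From late anagen to catagen 50 rose and 10 fell (all genes 20.0% and 18.7%), with a median of 0.35 against 0.00, and 48 and 9 with the GC trend removed. From catagen to refractory telogen 61 fell and 6 rose (all genes 24.5% and 19.1%), with a median of -0.60 against 0.00, and 59 and 7 with the GC trend removed. In the fall, 27 of 29 accessory subunits of complex I, 6 of 7 of its assembly factors and 10 of 15 genes of complex V were lower. Ndufa12 was 510 FPKM in DLA, 1235 in DC and 313 in DRT (1.28 ± 0.11, adjusted p = 2.07e-10, then -1.98 ± 0.12, adjusted p = 1.59e-13). Uqcrq, a small subunit of complex III, was 625, 595 and 515 FPKM in DLA, 1240 and 1191 in DC and 451 and 454 in DRT (1.07 ± 0.15, adjusted p = 1.62e-06, then -1.42 ± 0.17, adjusted p = 5.34e-08). Atp5d and Atp5g2 did the reverse: Atp5d was 356, 111 and 300 FPKM (-1.68 ± 0.14, adjusted p = 2.15e-10, then 1.43 ± 0.16, adjusted p = 1.71e-08) and Atp5g2 172, 70.2 and 144 FPKM (-1.28 ± 0.19, adjusted p = 3.38e-06, then 1.02 ± 0.21, adjusted p = 0.000195). Ndufa4l2 was 48.8, 8.71 and 90.2 FPKM (-2.36 ± 0.17, adjusted p = 4.50e-12, then 3.23 ± 0.18, adjusted p = 3.55e-14). Cox6a2 rose from 8.28 to 94.2 FPKM (3.36 ± 0.21, adjusted p = 4.89e-13) and Cox7a1 from 22.8 to 148 (2.65 ± 0.19, adjusted p = 3.79e-12), beside 15 of 15 skeletal muscle markers in that step. From DC to DRT all 4 cell cycle and all 3 melanocyte markers fell and all 5 epidermal keratinocyte markers rose, and their part was not tested.

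In chin skin more members rose than fell from catagen to refractory telogen, not far above the background. Against CRT, most members called were lower in the libraries labelled competent telogen. By its label CCT is the first rest phase, which comes before CRT in the life of the mouse and follows it here only in the order of the cycle. The cell cycle genes summed to 198 FPKM in CCT and 31.0 in CRT. The rise took in 36 members, with 7 lower (all genes 30.5% and 17.5%), and a median of 0.16 against 0.09. After median of ratios 26 rose and 8 fell, with medians of 0.08 and 0.04. After quantile scaling 40 rose and 9 fell, with medians of 0.19 and 0.00. The difference between CCT and CRT was lower in 32 and higher in 4 (all genes 17.8% and 18.4%), with a median of -0.19 against 0.00, and 25 and 7 after quantile scaling. Cox6a2 was 78.6 FPKM in CC, 376 in CRT and 11.8 in CCT (2.21 ± 0.19, adjusted p = 1.28e-10, then -4.84 ± 0.21, adjusted p = 1.32e-16), and Cox8b 116, 531 and 24.1 (2.15 ± 0.27, adjusted p = 1.28e-07, then -4.38 ± 0.30, adjusted p = 1.72e-12). All 15 muscle markers rose in the first step and fell in the second. All 5 keratinocyte and all 5 fibroblast markers also rose in the first, where all 8 hair, 4 cell cycle and 3 melanocyte markers fell, and all 8 adipocyte markers fell in the second. Their part was not tested. Cox4i2 fell from 24.5 to 10.7 FPKM into CRT (-1.11 ± 0.12, adjusted p = 7.82e-09) and Cox7a2 from 588 to 434 (-0.44 ± 0.07, adjusted p = 1.28e-05). Ndufaf2, a complex I assembly factor, was 47.4 FPKM in CCT and 35.0 in CRT (0.45 ± 0.11, adjusted p = 0.00123). Atp5g2 was 273 and 256 FPKM in CCT and 200, 170 and 196 in CRT (0.49 ± 0.19, adjusted p = 0.0465), a call lost without any 1 of these 5 libraries (adjusted p 0.0576 to 0.209), without the filter on low values (0.0775), after median of ratios (0.168) and with the replicate block (0.0701).

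In ventral skin the members were lower in VEA than in VCT. This step rests on the VEA libraries and on VCT, whose cell cycle level lay above that of the refractory telogen groups. Of 90, 53 fell and 3 rose (all genes 29.3% and 13.2%), with a median of -0.30 against -0.10. After scaling by median of ratios 20 fell and 15 rose, with medians of -0.04 and 0.01, and after quantile scaling 38 fell and 8 rose, so the count of members lower depends on the scale. Markers of other tissues moved too: from VCT to VEA cell cycle markers went from 219 to 25.1 FPKM in sum (4 of 4 fell), dermal fibroblast markers from 5904 to 1918 (5 of 5 fell), melanocyte markers from 148 to 13.2 (3 of 3 fell) and epidermal keratinocyte markers from 6268 to 14690 (3 of 5 rose). Their part was not tested. All 7 core subunits of complex I and 11 of 15 genes of complex V were lower. Cox5a was 363, 435 and 384 FPKM in VCT and 178, 194 and 189 in VEA (-1.07 ± 0.10, adjusted p = 7.01e-10). Ndufaf6, an assembly factor, fell from 20.0 to 7.33 FPKM (-1.33 ± 0.16, adjusted p = 8.61e-08), and Cox6b2 from 17.3 to 6.21 (-1.34 ± 0.22, adjusted p = 1.08e-05). Cox6a2 rose from 4.56 to 10.5 FPKM (1.04 ± 0.19, adjusted p = 5.65e-05), beside 7 of 15 muscle markers. Ndufa11 was 61.0 and 72.0 FPKM (0.24 ± 0.09, adjusted p = 0.0331), lost without VCT replicate 2 (0.215), VEA replicate 1 (0.0581) or VEA replicate 3 (0.113). From mid to late anagen 35 members rose and 6 fell (all genes 12.6% and 11.6%), with a median of 0.24 against 0.02, beside 5 of 5 fibroblast and 7 of 8 adipocyte markers that fell. Sdhd rose from 29.3 to 57.3 FPKM (0.96 ± 0.12, adjusted p = 1.79e-06) and Atp5g2 from 91.8 to 179 (0.99 ± 0.19, adjusted p = 0.000296). Ndufab1, the mitochondrial acyl carrier protein, fell from 280 to 187 FPKM (-0.58 ± 0.13, adjusted p = 0.0012). Ndufaf5 was 6.94 and 4.22 FPKM (-0.62 ± 0.23, adjusted p = 0.0469), lost without VMA replicate 1 (0.182) or 2 (0.15) or VLA replicate 1 (0.182) or 3 (0.0771), with the replicate block (0.0713), without the filter (0.0824) and after quantile scaling (0.0675).

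Neighbouring pathways were described by the same counts. Of all genes, 27.2% were higher and 7.61% lower in CRT than in DRT, and 24.7% and 6.06% in CRT than in VRT. The shares were 14.0% and 27.7% in VEA over DEA. From DC to DRT 19.1% rose and 24.5% fell, from VCT to VEA 13.2% and 29.3%, and from DLA to DC 20.0% and 18.7%. Of 13 enzymes of the tricarboxylic acid cycle, which feeds complexes I and II, 10 were higher and 0 lower in CRT than in DRT and 11 and 0 in CRT than in VRT, and 11 were lower and 0 higher in VEA than in DEA. From DC to DRT 9 of 13 fell and 0 rose. In these comparisons the members' counts had the same leading direction. Of 16 glycolysis enzymes 13 were higher and 0 lower in CRT than in DRT, but from DC to DRT 10 rose and 2 fell, opposite to the members. From VCT to VEA 9 of 13 mitochondrially encoded subunits rose and 0 fell, where 53 nuclear members fell. In CRT over DRT 3 were lower, 0 higher and the others not called, where 54 nuclear members were higher. From DLA to DC 8 of 13 rose and 0 fell, in the direction of the nuclear members. Of 9 regulators of mitochondrial biogenesis, such as Ppargc1a and Tfam, 3 were higher and 1 lower in CRT than in DRT and 0 higher and 4 lower in VEA than in DEA. In CRT over DRT the regulators were thus near the shares of all genes.

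In the ear table the members were compared between ear skin, the cartilage/muscle complex and dorsal skin. The markers fitted the tissue labels: cartilage genes summed to 3474 FPKM in LC and 5.49 in ERST, keratinocyte genes to 3.74 and 11421, and Krt14 was at 0 to 0.80 FPKM in LC. LC held muscle as well, with 29381 FPKM of skeletal muscle markers against 1547 in ERST. Over DRT, 53 members were higher and 11 lower in LC (all genes 42.0% and 26.5%), with a median of 0.43 against 0.23, and after median of ratios 40 and 27, with medians of 0.14 and 0.03. All 7 core subunits of complex I, all 4 genes of complex II and the 3 muscle isoforms were higher. Atp5b was 1466 FPKM in LC and 588 in DRT (1.32 ± 0.06, adjusted p = 4.11e-06), Sdha 130, 142 and 124 against 57.8 and 53.8 (1.22 ± 0.08, adjusted p = 2.09e-05) and Ndufv1 227 against 92.7 (1.28 ± 0.10, adjusted p = 7.09e-05). Cox6a2 was 739 and 74.8 FPKM (3.29 ± 0.07, adjusted p = 1.57e-07), Cox8b 692 and 117 (2.55 ± 0.06, adjusted p = 2.89e-07) and Cox7a1 348 and 75.8 (2.18 ± 0.09, adjusted p = 3.76e-06). Lower in LC were Ndufa4l2, at 17.4 and 90.2 FPKM (-2.31 ± 0.07, adjusted p = 8.31e-07), and Ndufa3, at 303, 301 and 293 against 785 and 854 (-1.45 ± 0.06, adjusted p = 3.53e-06).

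Against ERST, 49 members were higher and 13 lower in LC (all genes 28.0% and 38.5%), with a median of 0.29 against -0.11, but 27 and 28 on the TPM scale, with medians of 0.02 and -0.30. The median of all genes thus moved by more than 0.1 with the scaling, and the members' median stayed above it in each. Cox6a2 was 739 and 33.3 FPKM (4.43 ± 0.07, adjusted p = 5.41e-08), Cox7a1 348 and 31.6 (3.43 ± 0.09, adjusted p = 6.11e-07) and Cox4i2 79.6 and 12.3 (2.60 ± 0.08, adjusted p = 1.10e-06). Ndufa4 was 751 and 1563 FPKM (-1.06 ± 0.05, adjusted p = 4.97e-06) and Cox7a2l 170 and 438 (-1.36 ± 0.06, adjusted p = 4.78e-06), with Ndufa4l2 at 17.4 and 84.6 (-2.22 ± 0.07, adjusted p = 1.38e-06). Against DCT, 40 members were higher and 24 lower in LC (all genes 42.8% and 28.3%), with a median of 0.13 against 0.24. The direction turned with the scale, to 26 and 42 after median of ratios (median -0.13) and 65 and 10 after quantile scaling (median 0.43). Ndufa3 was 299 and 1123 FPKM there (-1.90 ± 0.05, adjusted p = 3.81e-07), Cox6a2 739 and 89.9 (3.02 ± 0.07, adjusted p = 2.04e-07).

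Ear skin differed from dorsal skin in a direction that depended on the scale and on the dorsal stage. Over DCT, 17 members were higher and 36 lower in ERST (all genes 44.7% and 14.6%), with a median of -0.15 against 0.33. The counts were 30 and 17 on the TPM scale (median 0.10), 2 and 68 after median of ratios (median -0.56) and 29 and 25 after quantile scaling (median 0.02). Over DRT, 37 were higher and 17 lower (all genes 44.5% and 13.0%), with a median of 0.15 against 0.33, with 44 and 8 on the TPM scale and 7 and 42 after median of ratios (median -0.29). The members' median lay below that of all genes in each of these, though not over DRT after quantile scaling (0.08 against 0.03). Complex I assembly factors were higher in 4 of 7 cases over either stage. Ndufaf6 was 15.1 and 13.4 FPKM in ERST and 6.06 and 5.88 in DRT (1.13 ± 0.09, adjusted p = 0.000145), and Ndufa10 147 and 137 against 65.4 and 62.4 (1.14 ± 0.10, adjusted p = 0.000211). The muscle isoforms were lower in ERST over either stage, as for Cox6a2 at 34.8 and 31.9 FPKM against 76.0 and 73.5 in DRT (-1.14 ± 0.07, adjusted p = 6.12e-05) and Cox7a1 at 31.6 against 75.8 (-1.24 ± 0.10, adjusted p = 0.000152), beside 15 of 15 skeletal muscle markers. Over DCT, Ndufa4l2 was 84.6 and 37.3 FPKM (1.16 ± 0.08, adjusted p = 7.06e-05) and Cox4i2 12.3 and 31.1 (-1.27 ± 0.09, adjusted p = 7.36e-05). Uqcrc1 was 361 and 219 FPKM (0.71 ± 0.16, adjusted p = 0.00863), a call lost after median of ratios (0.107). It was also lost with a single ERST library left out (log2 fold change 0.60). The numbers of the ERST columns do not settle which sample that library is.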

How the data were processed

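RNA of 48 libraries was sequenced as paired ends after SMART-seq2 cDNA preparation and tagmentation, without strand. Per the labels and the study's methods, the authors aligned reads to mm10 with GENCODE vM8, quantified genes with RSEM 1.2.25, corrected for batch effects and compared groups with edgeR. Whether the deposited FPKM values carry the batch correction is not given in the sources used here. The authors deposited FPKM per gene and library, so no count test was made. Depth was estimated from the steps of low FPKM values. For the tests, genes that reached 0.5 FPKM in 2 or more libraries were fitted on log2(FPKM + 1) by group (43 skin libraries together, the 7 ear table libraries, and LC, ERST and DRT together) with limma 3.58.1 in R 4.3.3, with a variance trend and Benjamini-Hochberg adjustment over all genes at 0.05. A fold change on this scale understates that of low genes. Errors are standard errors of the fit unless named SD. Tested on simulated data for DC against VC over 21257 genes, the fit recovered 43.3%, 83.6% and 98.5% of genes changed by 0.5, 1 and 2 on the log2 scale. The simulation changed 200 well expressed genes, in DC only. In the real comparison 16.4% of all genes were higher and 19.0% lower in VC, which loosens the adjusted threshold, so recovery there may differ. Alternatives were TPM, median of ratios and quantile scaling, a pseudocount of 0.1, a filter at 5 FPKM or none, no variance trend, fits of 1 stage or domain, a replicate block, 1 library left out, and, chosen after seeing the data, removal of the GC trend and of the CLA, DCT and VEA libraries. Replicate numbers did not pair the libraries: same-numbered libraries of different groups had correlations of their deviations of -0.174 to 0.129 (median -0.0037).

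Genes were named from the isoform families, complex II, 8 core subunits, the 3 highest and lowest members, and, for each comparison described, up to 2 members in each direction with the largest change among those called whose libraries did not overlap. Other members were named after their values were seen. The members and lists were chosen with earlier results of these data known. Coordinates are 1-based. Those of the promoters are from RefSeq on GRCm38.p6, and those of the genes Cox6a2 and Ndufa4l2 and the overlaps of exons from GENCODE vM21.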

Additional observations from a re-analysis of the deposited data

Results flagged for a closer look

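The change of the respiratory chain genes over the hair cycle differed between the domains by the interaction test for 84 of 90 members, beside 73.3% of all genes tested. Those genes start at 0.5 FPKM and were not matched to the members' levels.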

How the results depend on the processing

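Of 591 recomputed counts of members called, 577 stayed within 1.5 times the reported count. The others concerned the domains at 1 stage. In early anagen the count was 40 after median of ratios. In late anagen it was 28 after median of ratios, 55 in a fit of that stage alone and 6 without CLA and DCT. Fits of 1 stage alone gave 16 in mid anagen and 19 in refractory telogen, and leaving out CLA and DCT gave 12 in competent telogen. The causes were not tested. The fits of 1 stage alone and those without CLA and DCT also held fewer libraries. With 1 library left out, the counts among domains ran from 27 to 53 in competent telogen, 57 to 74 in early anagen, 47 to 64 in mid anagen, 11 to 28 in late anagen, 56 to 70 in catagen and 49 to 69 in refractory telogen. They ran from 79 to 89 for the interaction, and from 67 to 83, 71 to 87 and 75 to 86 among stages in chin, ventral and dorsal skin. In the ear table they ran from 39 to 64 for ERST over DCT, 49 to 69 for LC over DCT and 52 to 65 for LC over ERST. With the replicate number as a block the interaction was called for 83 members, and the block moved no count by over 1.5 times, but it ended the calls of Atp5g2 and Ndufaf5 given above. No paired fit was possible for ERST because its columns carry no number that pairs with other groups. Of 1487 recomputed fold changes of named genes, 1421 kept their direction and call, 66 lost the call and 0 reversed. With 2 or 3 libraries a group, differences of 0.5 on the log2 scale were often missed in the simulated data.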
